A study of Homo sapiens with 6 samples.

Results

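MST and MLT1 are the older branches of the mammalian apparent LTR retrotransposons (MaLR), and 42 entries of the repeat table carry these names, out of 15641 entries in all. They were taken by name, as every entry starting with MST (8 entries) or MLT1 (34 entries). Of these, 37 are long terminal repeats (LTRs) and 5 are internal regions, whose names end in -int. The related THE1 entries were left out of the set. All 42 had enough counts to be tested, so no member was lost to the filter on low values.

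MaLR elements are non-autonomous relatives of the ERVL retroviruses. An intact copy has an internal region flanked by LTRs, and the LTRs hold the promoter and polyadenylation signals. Most copies in the human genome have lost the internal region by recombination between the LTRs and remain as solitary LTRs, scattered through introns and between genes. MLT1 is the oldest branch and its letters run roughly from younger (A) to older (O). MST is younger, with MSTA the youngest, and THE1, confined to primates, is younger still. MaLR LTRs have been described as a source of alternative promoters and of exons in long non-coding RNAs.

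Chromatin-fraction RNA of the established human embryonic stem cell line H9 was sequenced, with 3 libraries labelled naïve and 3 labelled primed. The growth protocol in the labels, identical for all 6 libraries, describes RSeT medium for a naive condition, so the primed state rests on the treatment label. Each count is the sum over all genomic copies of a name, with no single coordinate, and a copy read through within a host gene's transcript adds to it as much as a copy transcribed from its own LTR. The libraries are a bulk measure of 1 cell line, in which fewer cells of a kind and less RNA per cell cannot be told apart. The labels do not state whether the libraries were separate cultures. The p-values therefore reflect the spread between these 6 libraries and may hold technical variation alone.

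The naive libraries held 9748202 to 17791046 counts each, and primed libraries 1, 2 and 3 held 7192242, 118793 and 8106871. In the shallow primed library 2 the members had 2 to 405 counts each, 10 of the 42 under 30 counts. Alpha satellite, the centromeric tandem repeat, took 25.3% to 42.9% of naive and 0.221% to 0.625% of primed counts, and ribosomal RNA reached 17.7% in primed library 1. The repeats listed as marks were HERVK-int, LTR5_Hs and LTR7Y for the naive state and HERVH-int and LTR7 for the primed state. Changes are given here for HERVK-int and HERVH-int alone. HERVK-int was higher in the naive libraries (log2 3.62 ± 0.30, SE; edgeR adjusted p = 7.88e-05). HERVH-int, listed as a mark of the primed state, went against that listing and was also higher in the libraries labelled naive (log2 1.14 ± 0.20; edgeR adjusted p = 0.0106).

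The comparison of naive with primed libraries asks how the RNA of these old LTR families on chromatin differs between the pluripotent states. With TMM scaling, which sets library factors from the bulk of entries, 4 of the 42 rose in naive cells: MLT1G1 by 1.69-fold, MLT1E3 by 1.54-fold, MLT1M by 1.44-fold and MSTA by 1.38-fold. None fell, and 38 did not pass (edgeR quasi-likelihood test, adjusted p under 0.05 over all 3219 entries tested). The 4 are 9.52% of the members. Among all entries tested 4.94% were called higher and 7.77% lower, and among the 1262 named repeats (entries other than simple and low-complexity repeats) 10.4% were called higher, so the members' share is near that of named repeats. DESeq2 called the same 4 higher and 0 lower, against 6.77% of named repeats higher. At an unadjusted p under 0.05, edgeR gave 24 members, each with a positive change. In either direction it gave 397 of the 1262 named repeats and 1017 of all 3219 entries tested. The 4 calls depend on the scaling and on which libraries are kept. Without naive library 2, MLT1G1 alone of the 4 passed. Without naive library 3, MLT1E3 and MLT1G1 did, and without primed library 2 MSTA was lost. By edgeR 0 of 42 passed with library size as the sole scaling, with simple repeats left out, with library sizes set to the members' own counts or without primed library 1, and 0 of the 38 still tested passed after thinning to the shallowest library. With library size alone MLT1E3 (-0.037), MLT1M (-0.13) and MSTA (-0.23) had log2 changes below 0.

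All 42 log2 changes were above 0 with TMM factors and 2 of 42 with library size as the sole scaling. With TMM factors 12 of 12 MLT2, 10 of 10 ERVL and HERVL internal and 86 of 88 L1M entries were above 0 too. So were 4 of 6 THE1, 7 of 9 L2 and 4 of 5 MIR entries, and most of the 1262 named repeats. A positive sign was thus not confined to MST and MLT1. The members' median with TMM factors was 0.32, between 0.13 for MLT1F1 and 1.09 for MLT1H-int, and 39 members differed by less than 1.5-fold. The median over all entries tested was -0.0046, and over named repeats outside MST and MLT1 it was 0.20. TMM-scaled CPM are counts divided by the product of library total and TMM factor, brought to a fixed scale. In 29 members, 69% of them, the 3 naive libraries all lay above the 3 primed ones in TMM-scaled CPM. The same held for 36.1% of named repeats and 19.4% of all entries. Counted in either direction, the groups were apart in 9 of 10 ERVL and HERVL internal regions, 4 of 6 THE1 and 7 of 12 MLT2 entries. They were apart in 57 of 88 L1M, 4 of 9 L2 and 1 of 5 MIR entries. Separate groups were thus not confined to MST and MLT1.

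**Figure D1:**
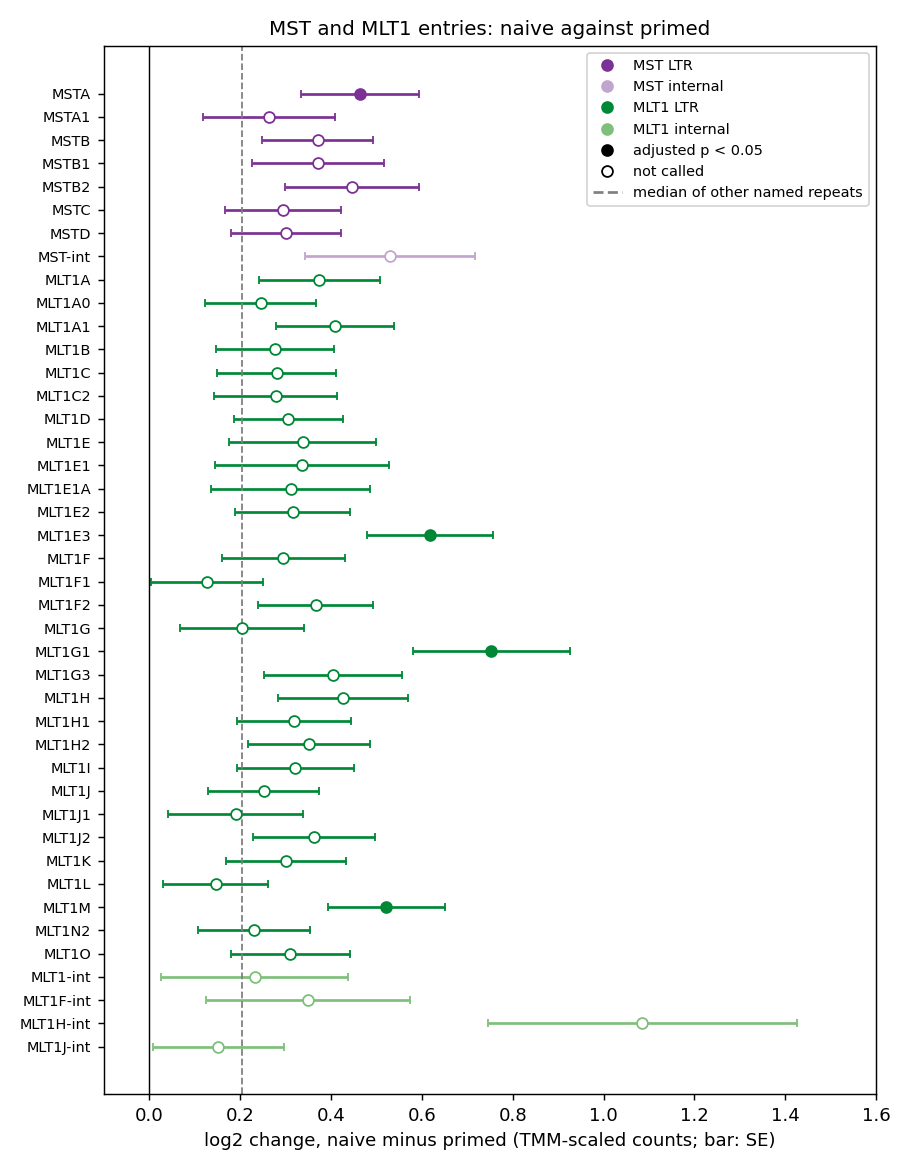
Log2 change (naive minus primed, TMM-scaled counts) of each of the 42 MST and MLT1 entries on the x axis, with its SE as a bar. Filled points passed an edgeR adjusted p of 0.05, and the dashed line is the median of the other named repeats, 0.20. All points lie above 0, with a median of 0.32 and with MLT1H-int far to the right but with a wide error.

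Among the 7 MST LTRs, MSTA was the one that passed. It stood at 3083, 3709 and 3638 CPM in the naive libraries, here and below in the order 1, 2, 3, and at 2489, 2266 and 2794 CPM in the primed ones. The groups did not overlap, and naive library 1 came nearest to the primed ones. The change was 0.46 ± 0.13 (log2, SE; edgeR adjusted p = 0.0400). MSTB, next in count, was at 1354, 1575 and 1571 CPM in naive and 1093, 1152 and 1235 CPM in primed libraries, again without overlap, but did not pass (log2 0.37 ± 0.12; edgeR adjusted p = 0.0653). The other MST LTRs did not pass either, with log2 changes of 0.45 for MSTB2, 0.37 for MSTB1, 0.30 for MSTD, 0.29 for MSTC and 0.26 for MSTA1. MSTB1 and MSTA1 had overlapping groups.

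MST-int, the one internal entry of this branch, was at 106, 129.8 and 151 CPM in naive and 85.6, 55.9 and 104 CPM in primed libraries. The lowest naive library was thus barely above the highest primed one. Its log2 change of 0.53 ± 0.19 did not pass (edgeR adjusted p = 0.0837), and its value in primed library 2 rests on 10 counts. Without naive library 1 it did pass (log2 0.68; edgeR adjusted p = 0.0215), in a fit that called 16% of named repeats higher. Without any other single library it did not pass, with edgeR adjusted p from 0.0610 (without primed library 3) to 0.363 (without primed library 1).

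Of the 30 MLT1 LTRs, which had a median log2 change of 0.31, 3 rose and 27 did not pass. MLT1G1 stood at 428, 542 and 544 CPM in naive and 298, 218 and 355 CPM in primed libraries. Its groups were well apart, although primed library 2, the lowest, rests on 39 counts with a 95% exact Poisson interval of 155 to 298 CPM. The change was 0.75 ± 0.17 (log2, SE; edgeR adjusted p = 0.0236).

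MLT1E3 was at 208, 238 and 216 CPM in naive and 130.4, 134 and 161 CPM in primed libraries. The naive values lay close together and each exceeded every primed value (log2 0.62 ± 0.14; edgeR adjusted p = 0.0223). The MLT1E3 value in primed library 2 rests on 24 counts, with a 95% exact Poisson interval of 86.0 to 199.8 CPM. MLT1M, among the oldest by letter, was at 287, 296 and 317 CPM in naive and 195, 201 and 227 CPM in primed libraries. It had a narrow spread in both groups, with SDs of 15.3 and 16.9 CPM (n = 3), and a change of 0.52 ± 0.13 (edgeR adjusted p = 0.0280). Its value in primed library 2 rests on 36 counts, with a 95% exact Poisson interval of 141 to 279 CPM. That interval holds all 3 primed values, so the small primed SD is no measure of precision in that library.

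The MLT1 LTRs with the highest counts moved less and did not pass. MLT1D was at 2708, 2671 and 2951 CPM in naive and 2038, 2243 and 2455 CPM in primed libraries, with no overlap (log2 0.31 ± 0.12; edgeR adjusted p = 0.111). MLT1A0 gave 0.25 (edgeR adjusted p = 0.194), MLT1C2 gave 0.28 (0.184) and MLT1B gave 0.28 (0.169). MLT1F1 and MLT1L had the smallest changes of the set. MLT1L was at 1187, 1302 and 1309.8 CPM in naive and 1192, 1085 and 1149 CPM in primed libraries, so that primed library 1 exceeded naive library 1 (log2 0.15 ± 0.12; edgeR adjusted p = 0.421). MLT1F1 was at 518, 551 and 565 CPM in naive and 469.6, 554 and 485 CPM in primed libraries, also overlapping (log2 0.13 ± 0.12; edgeR adjusted p = 0.516).

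**Figure D2:**
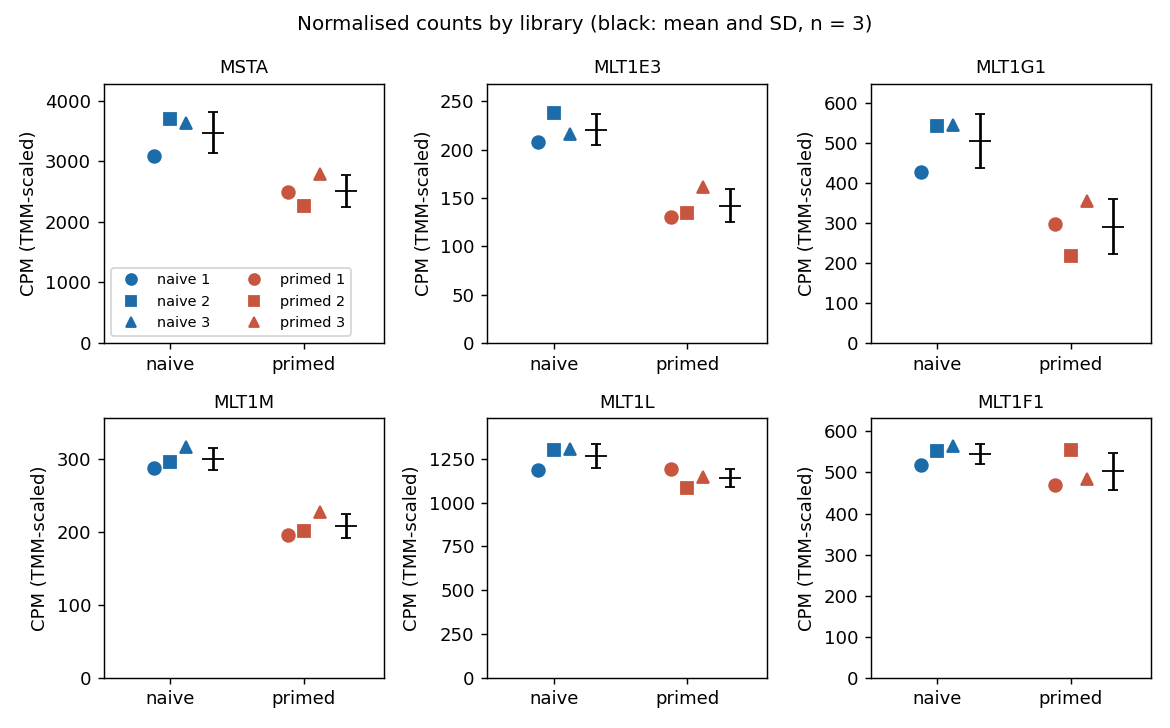
TMM-scaled CPM (y axis, from 0) of the 4 entries that rose and of the 2 with the smallest changes, MLT1L and MLT1F1, in each naive and primed library, with the mean and SD (n = 3) in black. The groups are separate for MSTA, MLT1E3, MLT1G1 and MLT1M and overlap for the other two.

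The age order in the names did not sort the changes. The median was 0.28 for the 7 LTRs MLT1A to MLT1D, 0.34 for the 11 of MLT1E to MLT1G, 0.32 for the 7 of MLT1H to MLT1J and 0.30 for the 5 of MLT1K to MLT1O. The 7 MST LTRs had a median of 0.37. Across the 37 LTRs, Spearman's rho between the order of names (MSTA first, MLT1O last) and the log2 change was -0.17. This is a description across entries that share the same 6 libraries.

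Internal regions of MLT1 carried few counts and 0 of 4 passed, where 1 had an unadjusted p under 0.05 and DESeq2 likewise called 0. That one was MLT1H-int, with the largest change of all members, at 15.2, 28.2 and 19.7 CPM in naive and 6.45, 11.2 and 13.1 CPM in primed libraries. The groups were apart, but naive library 2 alone stood high and primed library 2 held 2 counts (log2 1.09 ± 0.34; edgeR adjusted p = 0.0572). Its call turned with the setting. MLT1H-int passed with no filter on low counts (edgeR adjusted p = 0.0051), without naive library 1 (log2 1.29; 0.0150) and without primed library 3 (log2 1.63; 0.0322), and without primed library 1 its log2 change was 0.69 (0.364). MLT1F-int gave 0.35 ± 0.22 (edgeR adjusted p = 0.307), MLT1-int 0.23 ± 0.21 (0.476) and MLT1J-int 0.15 ± 0.15 (0.507). MLT1J-int, with the most counts of the 4, was at 78.9, 69.7 and 76.0 CPM in naive and 62.0, 61.5 and 74.3 CPM in primed libraries, so its groups overlapped.

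The ratio of internal to LTR counts within a library needs no scaling factor, and 3 families have both entries under 1 name. MLT1H-int had 1.71, 2.52 and 1.70 counts per 100 MLT1H counts in naive and 0.903, 1.47 and 1.49 in primed libraries. Every naive ratio was above every primed one as raw counts. With 0.5 added to each count the groups overlapped, because of the 2 counts in primed library 2, and the log2 ratio differed by 0.52 (exact two-sided permutation p = 0.3, adjusted over the 3 pairs 0.6). MLT1F-int ran from 3.19 to 4.22 per 100 MLT1F counts in naive and from 2.67 to 3.67 in primed libraries (exact permutation p = 0.7). The low end of 2.67 was primed library 2, with 2 counts of MLT1F-int. MLT1J-int ran from 4.21 to 5.09 and from 4.60 to 4.86 per 100 MLT1J counts (exact permutation p = 0.4). The smallest p that 3 against 3 allows is 0.1. Internal regions together held 0.733% to 0.793% of the members' counts in all but primed library 2, where they held 0.598% on 29 counts.

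Which families stood apart from the rest of the set was read from each entry's share of the summed MST and MLT1 counts, which also needs no scaling factor. In 9 of 42 entries, 21.4%, this share did not overlap between the groups. Counts divided by the same sum did not overlap for 25.1% of named repeats, so the number of such entries is not above the background. The share was higher in naive libraries for 6 of them, MLT1G1, MLT1E3, MLT1M, MSTA, MLT1A1 and MLT1H-int, and lower for MLT1L, MLT1J and MLT1G. MLT1G1 took 1.35%, 1.52% and 1.47% of the members' counts in naive and 1.15%, 0.804% and 1.18% in primed libraries. MLT1L took 3.75%, 3.65% and 3.54% in naive and 4.61%, 3.999% and 3.82% in primed libraries. With library sizes set to the members' summed counts, 0 of 42 passed in either direction by edgeR over all entries (3 higher at an unadjusted p under 0.05), against 1.97% of named repeats called higher and 4.33% lower. Under that scaling MLT1G1 was at 0.43 (edgeR adjusted p = 0.0841), MLT1E3 at 0.30 (0.141) and MLT1L at -0.19 (0.352).

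**Figure D3:**
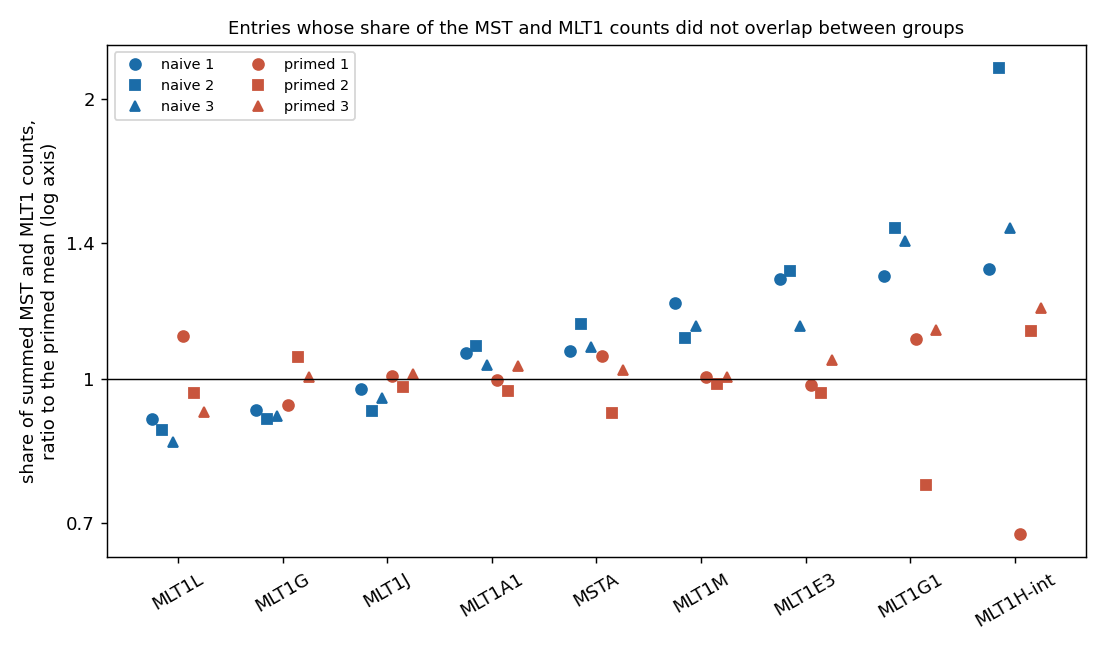
Share of the summed MST and MLT1 counts taken by each of the 9 entries whose groups did not overlap, in each library, divided by the primed mean (log axis). MLT1L, MLT1G and MLT1J lie lower in naive libraries, the other 6 higher, and the 2 entries with the widest spread are MLT1G1 and MLT1H-int.

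Shares within a letter also need no scaling factor, and 9 letters have more than 1 LTR entry. Of their 27 entries, 6 had shares of the letter's counts that did not overlap between the groups, and the letters MLT1C, MLT1H, MSTA and MSTB had 0. Shares of 1 letter sum to the whole, so its entries are not independent, and no test was run. No background from other repeats was set beside these shares, so whether 6 of 27 is above it was not tested. The letters MLT1G and MLT1E were singled out after their values were seen. Within the MLT1G letter, MLT1G1 made up 39.8%, 39.9% and 39.8% of the counts of MLT1G, MLT1G1 and MLT1G3 in naive libraries and 34.8%, 25.8% and 35.3% in primed libraries. The naive shares were nearly identical, and plain MLT1G filled less of the letter in naive (24.6% ± 1.76) than in primed libraries (30.01% ± 2.82, SD, n = 3). MLT1G had a log2 change of 0.20 (edgeR adjusted p = 0.330) and MLT1G3 of 0.40 (0.0964), and neither passed. Within MLT1E, MLT1E3 held 15.4%, 15.1% and 14.002% of the letter's counts in naive and 12.8%, 10.96% and 12.9% in primed libraries. Its 4 sister entries MLT1E, MLT1E1, MLT1E1A and MLT1E2 had log2 changes between 0.31 and 0.34, and 0 of them passed. Reads from similar copies can be assigned to either sister, and the counting of such reads was not given in these sources.

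The summed level of the set changed side with the total it was set against. Of all counts, MST and MLT1 took 2.86%, 2.24% and 3.16% in the naive libraries, in order, against 2.84%, 4.08% and 3.73% in the primed ones, which overlap. For primed library 2 the 95% Wilson interval was 3.97% to 4.20%, from counting error alone. With alpha satellite and ribosomal RNA left out of the total, the shares were 4.16%, 4.34% and 4.83% in naive and 3.47%, 4.28% and 4.07% in primed libraries, with the higher mean now in naive libraries and still an overlap. Within the set the balance of branches was nearly fixed. The MST LTRs held 21.3%, 22.1% and 21.1% of the members' counts in naive and 21.04%, 19.6% and 20.6% in primed libraries, and naive library 3 and primed library 1 nearly met.

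Other old repeats and nearer relatives gave a further yardstick. Against the summed counts of L2 and MIR, which are non-LTR repeats of great age, MST and MLT1 had 24.4, 26.5 and 26.1 counts per 100 in naive and 21.3, 24.3 and 23.1 in primed libraries. The groups were apart, though naive library 1 and primed library 2 nearly met. Against THE1 they had 367, 323 and 336 counts per 100 in naive and 370.1, 385 and 356 in primed libraries, which overlap. Against MLT2, the LTRs of the ERVL group, the ratio was 11.7, 11.1 and 11.7 in naive and 12.8, 11.8 and 12.5 in primed libraries, lower in naive libraries and again barely apart. No test was run on these sums.

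**Figure D4:**
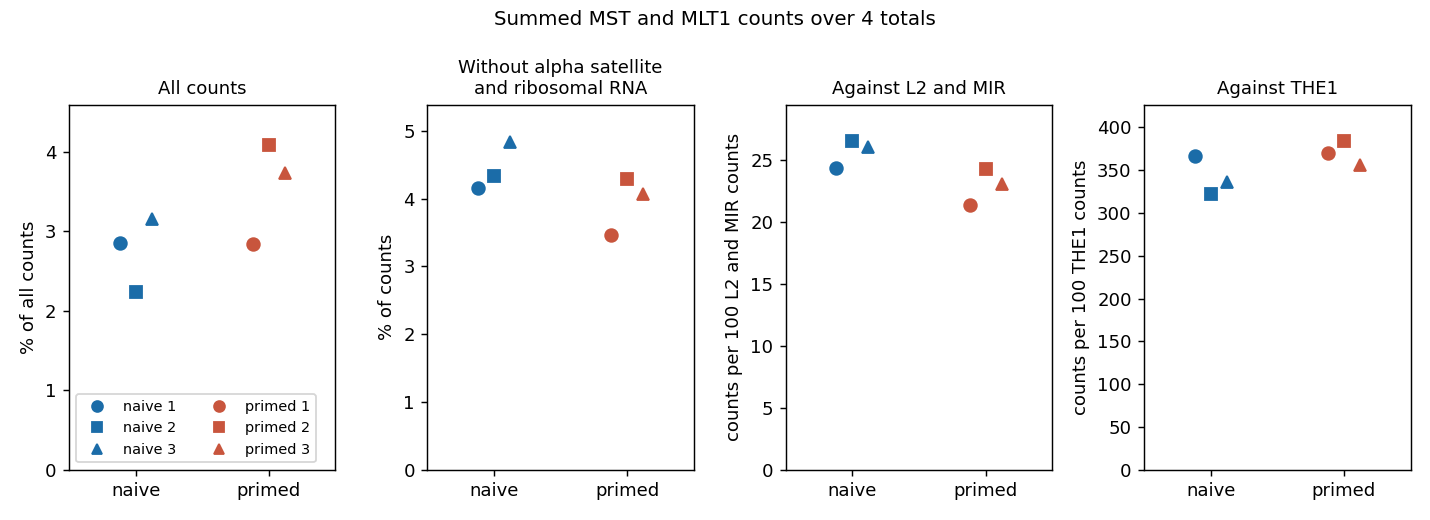
Summed MST and MLT1 counts in each library (y axes from 0) as a percentage of all counts, as a percentage of counts without alpha satellite and ribosomal RNA, per 100 L2 and MIR counts, and per 100 THE1 counts. The naive libraries lie above the primed ones per 100 L2 and MIR counts, and the groups overlap over the other 3 totals.

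Counted entry by entry, 0 of 6 THE1 entries passed by edgeR (4 at an unadjusted p under 0.05, median log2 change 0.39). Of 12 MLT2 entries 4 rose (9 at an unadjusted p under 0.05, median 0.43). Of 10 ERVL and HERVL internal regions 2 rose (7 at an unadjusted p under 0.05, median 0.38). Among non-LTR repeats, 0 of 9 L2 entries passed (1 at an unadjusted p under 0.05, median 0.20). Of 5 MIR entries 0 passed (0 at an unadjusted p under 0.05, median 0.11). Of 88 entries named L1M 10 rose (32 at an unadjusted p under 0.05, median 0.23). None of these lists had an entry that fell. Whether the MST and MLT1 changes differ from theirs was not tested.

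The libraries within a group moved as blocks across the members. Taking each member's log2 CPM minus its mean over the 6 libraries, the median over members was 0.036, 0.21 and 0.25 in the naive libraries, in order, against -0.28, -0.18 and -0.049 in the primed ones. Naive library 1 was the lowest naive library for 39 of 42 members, and primed library 3 the highest primed library for 33. Primed library 1, the lowest of all, also had the largest shares of ribosomal RNA and of simple repeats (8.70%, against 3.17% to 7.20% in the others), and the part of these in the result was not tested. Without primed library 1, 0 of 42 members passed by edgeR (8 at an unadjusted p under 0.05) and 8 of all entries were called higher, while all 42 log2 changes stayed above 0 with a median of 0.23. Among named repeats 0.55% were called higher in that fit, so calls were lost across named repeats too. Without naive library 1, 12 passed, among them the 4 named above, against 16% of named repeats. Without naive library 2, 1 passed (MLT1G1), against 3.45%. Without naive library 3, 2 passed (MLT1E3 and MLT1G1), against 6.45%. Without the shallow primed library 2, 5 passed, with MLT1E1A and MLT1H2 in and MSTA out (edgeR adjusted p = 0.0558), against 12.1%. Without primed library 3, 5 passed, the 4 and MLT1H-int, against 7.86%.

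Library size as the sole scaling moved the median of all entries from -0.0046 to -0.61 and that of the members to -0.36, with 0 of 42 called in either direction by edgeR (2 lower at an unadjusted p under 0.05) against 1.03% of named repeats called higher and 16.8% lower. MLT1G1 and MLT1H-int were the 2 members still above 0, at 0.10 and 0.43. With simple repeats left out of the fit, which moved the median of named repeats to -0.012, 0 of 42 passed by edgeR (5 at an unadjusted p under 0.05), 36 were above 0 and the median was 0.092, against 2.46% of named repeats called higher and 1.35% lower. A change of scaling factors shifts all entries nearly alike, so the distance between the members' median and that of named repeats, 0.10 with TMM factors, says nothing about stability across scalings.

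**Figure D5:**
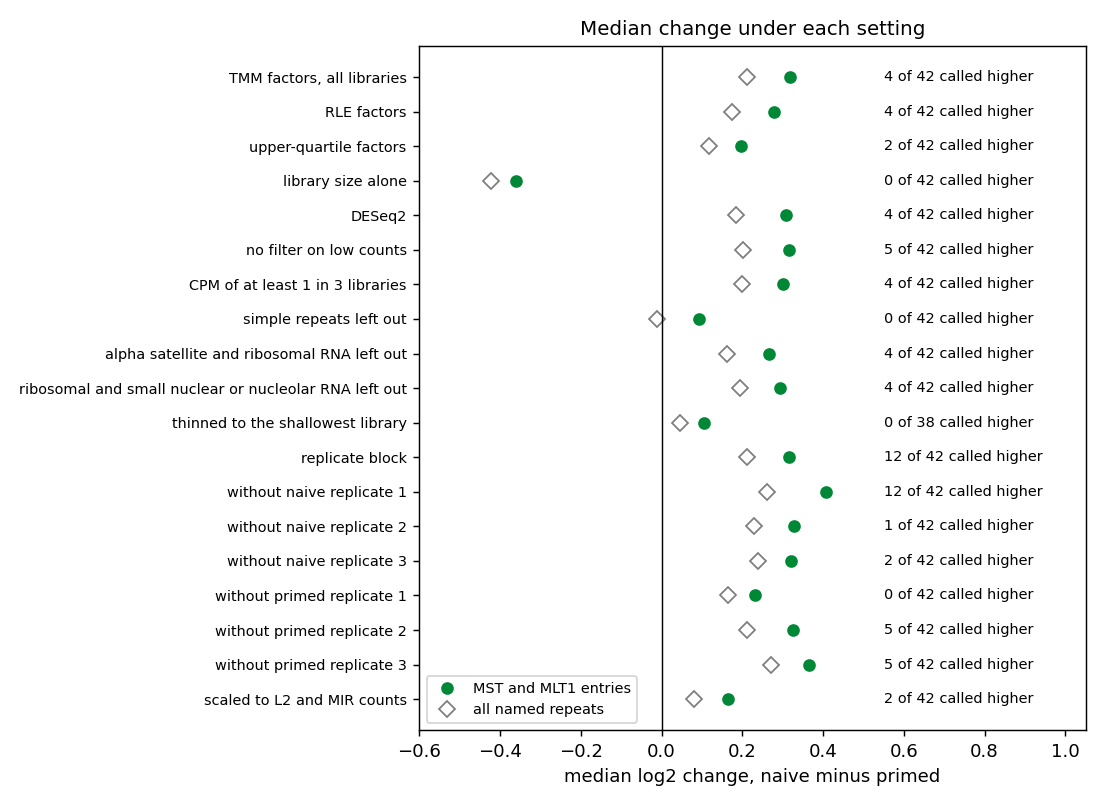
Median log2 change (naive minus primed, x axis) of the MST and MLT1 entries and of all named repeats under each setting shown, with the number of members called higher at the right. Both medians move together from setting to setting and lie below 0 with library size alone. Scaled to the members' own counts, which sets their sum to no change, they were -0.0070 for members and -0.11 for named repeats.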

How the data were processed

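The deposited table holds raw counts per repeat name for 6 libraries, which the authors had not normalised as far as the values show. Per the submitters' processing notes, the tools were Trimmomatic 0.39, STAR 2.7.8a, featureCounts and Subread 2.14.2. No source used here gives the genome build, the repeat annotation, whether strand was used in counting, or how multi-mapping reads were treated. The treatment label set the groups, and sample titles set the columns.

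The test was that of edgeR 4.0.16, run in R 4.3.3 (TMM, filterByExpr with the group, quasi-likelihood F-test, naive against primed, Benjamini-Hochberg over all 3219 entries tested). The SE is the log2 change divided by the square root of F. Internal to LTR ratios were compared by exact permutation over libraries. Alternatives were other scaling factors, DESeq2 1.42.0, other filters, entries left out, thinning to 118793 counts, a replicate block and each library left out. Scaling to L2 and MIR counts and to the members' own counts was chosen after seeing the data. Intervals cover counting error alone, and these reads carry no molecular identifiers to mark independent molecules.

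Members and lists were chosen with earlier results of these data known. Named entries are every member called and, in each of 4 classes (MST or MLT1, LTR or internal), the 4 with the highest mean CPM and the 2 highest and 2 lowest log2 changes. MLT1A1, MLT1E, MLT1E1, MLT1E1A, MLT1E2, MLT1G, MLT1G3, MLT1H2 and MLT1J fall outside this rule and were named after their values were seen. The edgeR step was first tested on simulated data with known changes. Plots used matplotlib 3.10.9 and Python 3.11.15.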

Additional observations from a re-analysis of the deposited data

How the results depend on the processing

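With TMM factors 4 of 42 MST and MLT1 entries were called higher and 0 lower, with a median log2 change of 0.32, and 159 entries of the whole table were higher and 250 lower. RLE factors, DESeq2, the filter at 1 CPM, and leaving out alpha satellite and ribosomal RNA or the ribosomal, small nuclear and nucleolar RNAs each called those same 4 members. DESeq2 called 94 entries of the whole table higher and 114 lower. Without a filter edgeR called 264 and 596, with 5 members higher, MLT1H-int being the one gained, against 10.8% of named repeats called higher. Upper-quartile factors gave 2 members, a median of 0.20 and 104 entries higher, with 6.26% of named repeats called higher. With simple repeats left out, 0 members were called by edgeR (5 at an unadjusted p under 0.05), the median was 0.092, 31 entries were higher and 17 lower, and MLT1F1 (-0.099), MLT1J-int (-0.066) and MLT1L (-0.093) turned negative. Thinning to 118793 counts per library gave 0 members by edgeR (4 at an unadjusted p under 0.05), a median of 0.10, 2 entries higher and 0 lower, and negative values for MLT1F1 (-0.22), MLT1L (-0.066) and MSTB1 (-0.16). It removes most counts of 5 libraries.

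With library size alone, 0 members were called by edgeR (0 higher and 2 lower at an unadjusted p under 0.05), the median was -0.36, and 28 entries were higher and 1051 lower. Log2 changes below 0 were then -0.38 for MLT1-int, -0.46 for MLT1A0, -0.42 for MLT1B, -0.40 for MLT1C2, -0.38 for MLT1D, -0.037 for MLT1E3, -0.25 for MLT1F-int, -0.57 for MLT1F1, -0.45 for MLT1J-int, -0.54 for MLT1L, -0.13 for MLT1M, -0.071 for MST-int, -0.23 for MSTA, -0.36 for MSTA1, -0.32 for MSTB, -0.30 for MSTB1, -0.20 for MSTB2, -0.39 for MSTC and -0.39 for MSTD. Scaling to L2 and MIR counts, chosen after seeing the data, gave 2 members (MLT1E3 and MLT1G1), against 4.65% of named repeats called higher. The median was 0.16, 84 entries were higher, MLT1F1 was at -0.032 and MLT1L at -0.013. Scaling to the members' own counts, also chosen then, gave 0 members by edgeR (3 at an unadjusted p under 0.05) and 42 entries higher and 436 lower. It sets the members' sum to no change by construction, with -0.077 for MLT1-int, -0.079 for MLT1A0, -0.052 for MLT1B, -0.049 for MLT1C2, -0.016 for MLT1D, -0.20 for MLT1F1, -0.15 for MLT1J-int, -0.19 for MLT1L, -0.051 for MSTA1, -0.030 for MSTC and -0.022 for MSTD. Library size alone leaves out the TMM factors, whose means were 0.795 in naive and 1.28 in primed libraries, without overlap. Beyond these factors, and except where construction is named, the cause was not tested.

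The replicate block raised the members called to 12, with MLT1H-int (edgeR adjusted p = 0.0082) and MST-int (0.0057) among them, and all entries called higher to 264. Among named repeats 18.4% were called higher with the block and 10.4% without it, so calls were gained across named repeats too. The labels used here do not state whether libraries with the same replicate number were paired. Deviations from the group means correlated at 0.15, 0.09 and 0.07 for pairs 1 to 3, each sample correlating best with its own number. Between unlike numbers the values ran from -0.11 to -0.0033. Deviations within a group sum to 0, so positive values for like numbers push those for unlike numbers below 0. The values are therefore not independent. Whether the libraries were paired was not tested further. Leaving out 1 library at a time gave 0 to 12 members higher and 0 lower, with medians from 0.23 to 0.41, and 8 to 238 entries higher and 7 to 413 lower. The members' share of counts, 0.80 percentage points lower in naive libraries on average (naive minus primed -0.80), ranged from -1.16 to -0.54 in those fits and turned to 0.50 with alpha satellite and ribosomal RNA left out of the total. The log2 ratio of internal to LTR counts (naive minus primed) with 1 library left out ranged from -0.052 to 0.15 for MLT1F, the negative value without naive library 2, from 0.23 to 0.74 for MLT1H and from -0.18 to -0.039 for MLT1J. Without the pseudocount MLT1F gave 0.18 (exact permutation p = 0.4), MLT1J -0.068 (0.5) and MLT1H 0.63 (0.1, the smallest possible). In primed library 2, 3 counts equal 16.7 TMM-scaled CPM, above the 11.2 CPM of both MLT1H-int and MLT1F-int there.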
